A study of Mus musculus with 294 samples.

Results

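Sox9, Scx and 4 genes of cartilage-type matrix, Col2a1, Col9a1, Acan and Matn4, were followed across single cells of the embryonic mouse heart. The genes were chosen by name and taken wherever the deposited table of raw counts held a row for them. Of 7 genes named, 6 were rows of that table, which holds 15124 genes, and Tnmd was not analysed here. The question was whether cells with more Sox9 also carried more of its target genes.

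The cells came from the outflow tract of Wnt1-Cre; R26-EYFP embryos taken at 4 ages (E11.5, E12.5, then E14.5, and last E17.5), and each was sorted as EYFP-positive. Wnt1-Cre is active in the early neural crest, so the reporter marks the descendants of that lineage whatever they have become, and all cells carried both alleles. Each cell was captured in a Fluidigm C1 chip and sequenced on its own with a full-length cDNA kit, without molecular identifiers, so the counts are reads. The labels give no stage, animal or chip for a cell, so the cells formed 1 group without replicates and no test between sets of cells was made.

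Cell names begin with a digit from 1 to 7, and the cells sharing a first digit are called a name series here. What the digit stands for is not in the labels, so these sets are only a way to keep like-named cells together and are no experimental groups. The 7 name series held 58, 48, 38, 38, 34, 34 and 44 cells. Reads per cell ran from 34046 to 3033857 with a median of 1204543, and the median of the name series ran from 635879 in name series 3 to 1630832 in name series 2. Name series 1 stood apart in the number of genes with a read, whose median was 7718 per cell there and 3123 to 4677 in the other 6. Levels are given as reads of the gene per 1000000 reads of the cell (CPM), and a gene is called detected at 10 CPM or more. The interval beside a share of cells is the exact 95% interval of Clopper and Pearson, for counting error only.

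Sox9 is a transcription factor with an HMG box that directs cartilage formation and, together with Sox5 and Sox6, switches on genes of cartilage matrix. In the heart it is known for its part in the cushion mesenchyme, from which the valves and the outflow septum are built, and mature valve leaflets contain matrix molecules shared with cartilage and tendon. Scx, or scleraxis, is a basic helix-loop-helix factor of tendon and ligament precursors that is also found in valves. Col2a1 and Col9a1 encode chains of the cartilage collagens type II and type IX. Acan encodes aggrecan, the large proteoglycan of cartilage, and Matn4 encodes matrilin-4, an adaptor protein of extracellular matrix. Col2a1, Col9a1 and Acan are established Sox9 targets in cartilage.

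In GENCODE M21 on GRCm38, Sox9 (ENSMUSG00000000567.5) lies at chr11:112782224-112787760 on the plus strand. Scx (ENSMUSG00000034161.8) lies at chr15:76457452-76459458 on the plus strand, inside Bop1, a ribosome biogenesis gene on the opposite strand, and shares 0 exon bases with it. Col2a1 (ENSMUSG00000022483.17) lies at chr15:97975602-98004695 on the minus strand, and Col9a1 (ENSMUSG00000026147.16) at chr1:24177610-24252684 on the plus strand. Acan (ENSMUSG00000030607.7) lies at chr7:79053483-79115099 on the plus strand. Matn4 (ENSMUSG00000016995.17) lies at chr2:164389393-164405160 on the minus strand and shares 2.88% of its exon bases with Rbpjl on the opposite strand. Whether the counting used strand is not given in the sources used here, so reads from those bases cannot be assigned to one gene. Rbpjl had a mean of 2.27 CPM.

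Promoter sequences from RefSeq on GRCm38.p6 were at hand for 3 of the 6 genes, Col9a1, Acan and Matn4, each running from 250 bases before a transcription start to 50 bases after it. They are shown because the factors measured here belong to families with known DNA motifs, and these are the genes whose levels are set against them below. Capitals mark the E-box CANNTG, the motif class of basic helix-loop-helix factors such as Scx, written 5′ to 3′ on the strand of the gene. The sequences are the first Col9a1 start (chr1:24177360-24177659, plus strand), a Col9a1 start inside the gene (chr1:24194953-24195252, plus strand), Acan (chr7:79052976-79053275, plus strand) and a Matn4 start (chr2:164405111-164405410, minus strand).
Col9a1 first start: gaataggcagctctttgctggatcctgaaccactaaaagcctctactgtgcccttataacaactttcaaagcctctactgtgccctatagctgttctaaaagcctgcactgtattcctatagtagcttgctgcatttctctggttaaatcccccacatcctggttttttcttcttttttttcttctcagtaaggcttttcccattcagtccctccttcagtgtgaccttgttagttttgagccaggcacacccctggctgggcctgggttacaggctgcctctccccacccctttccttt
Col9a1 inner start: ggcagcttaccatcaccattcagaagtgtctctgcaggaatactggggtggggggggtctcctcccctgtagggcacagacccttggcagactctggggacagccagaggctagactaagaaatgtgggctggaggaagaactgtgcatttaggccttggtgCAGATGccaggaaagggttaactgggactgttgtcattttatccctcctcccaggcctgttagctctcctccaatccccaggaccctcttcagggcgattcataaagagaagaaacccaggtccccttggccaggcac
Acan: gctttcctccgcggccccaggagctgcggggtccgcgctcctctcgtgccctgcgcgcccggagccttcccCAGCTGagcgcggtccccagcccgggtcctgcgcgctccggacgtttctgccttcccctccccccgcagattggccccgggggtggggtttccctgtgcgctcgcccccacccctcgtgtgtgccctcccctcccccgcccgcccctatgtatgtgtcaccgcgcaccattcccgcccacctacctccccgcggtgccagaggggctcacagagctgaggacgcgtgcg
Matn4: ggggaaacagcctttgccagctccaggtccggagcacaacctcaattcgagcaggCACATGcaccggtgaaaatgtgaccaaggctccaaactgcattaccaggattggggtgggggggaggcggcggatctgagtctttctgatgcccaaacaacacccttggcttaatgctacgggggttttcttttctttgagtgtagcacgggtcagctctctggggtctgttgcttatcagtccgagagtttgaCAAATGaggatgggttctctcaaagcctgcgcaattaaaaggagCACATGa

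The window at the first Col9a1 start held no E-box, the inner Col9a1 window held 1 at position -88 from the start, and the Acan window held 1 at position -179. The Matn4 window held 3. Over all 32544 promoters of the same length in the RefSeq table, 72.3% held at least 1 E-box, so holding one sets none of these genes apart. The SOX motifs AACAAT and ACAAAG, searched on both strands, had no match in these windows, nor in a second Matn4 window that is not printed. They were found in 10.6% and 18.7% of all promoters. The absence says only that these letters are not in these windows.

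Sox9 was the most widespread of the 6 genes, found at 10 CPM or more in 85.4% of all cells (interval 80.8 to 89.2). Its level ran from 0 in 24 cells to 3049 CPM, with a median of 211.7 CPM. By name series the median was 127.7, 47, 409.5, 289.9, 126.5, 358.3 and 293.7 CPM for name series 1 to 7. The levels of all 7 name series overlapped. The highest cell reached 698 CPM in name series 1 and 3049 CPM in name series 3, and the lowest lay at 3.79 CPM or below in all 7. Detection was lowest in name series 2, at 34 of 48 cells (70.8%, 55.9 to 83), and 82.4% to 90.9% in the other 6. At 100 CPM or more, Sox9 was found in 63.6% of cells.

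**Figure D1:**
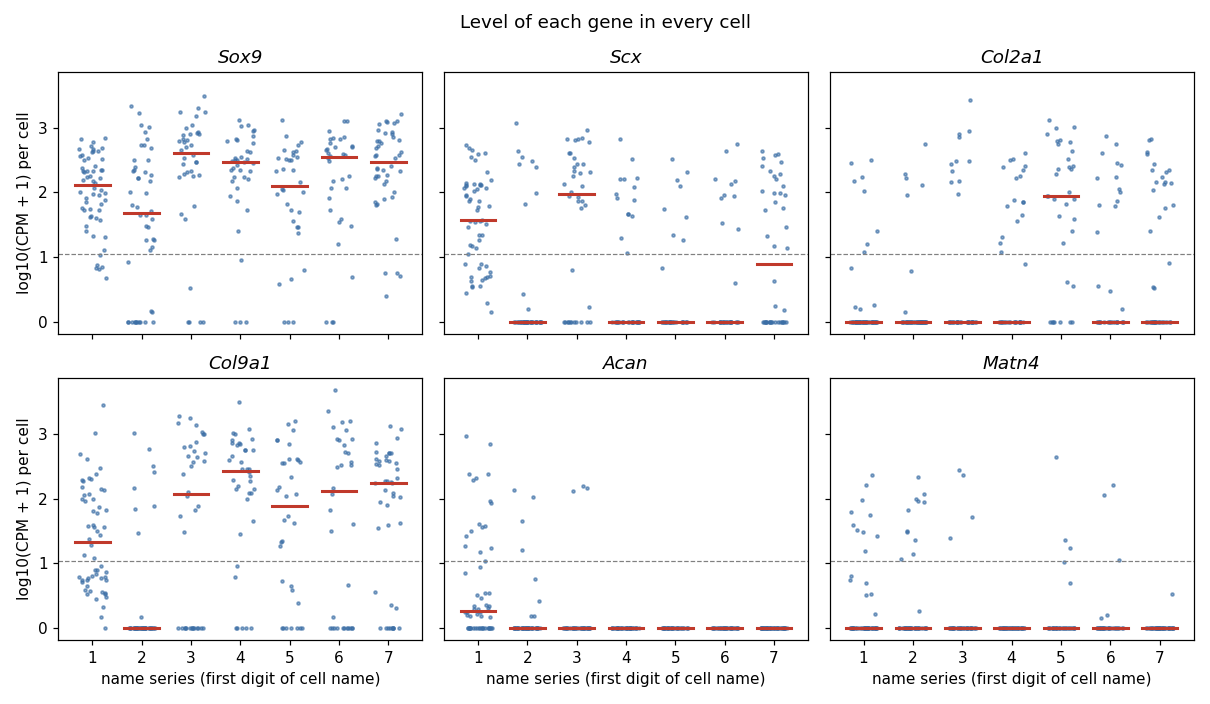
Level of each of the 6 genes in every cell, as log10(CPM + 1) on the vertical axis, by name series on the horizontal axis. Points are cells, red bars are medians and the dashed line is 10 CPM; Sox9 medians lie between 47 and 409.5 CPM, while Acan has no cell above 0 in name series 4 to 7.

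Scx was detected in 43.5% of cells (37.8 to 49.4), with a mean of 84 CPM and a highest level of 1164 CPM. It was found in 41 of 58 cells of name series 1 (70.7%), 8 of 48 of name series 2 (16.7%) and 25 of 38 of name series 3 (65.8%). In name series 4 to 7 the shares were 36.8%, 23.5%, 29.4% and 50.0%. Scx thus covered a wider span of shares than Sox9. In name series 1 all 58 cells had at least 1 Scx read and the lowest level was 0.438 CPM, while in each other name series 11 to 38 cells had none. Name series 1 also had the most genes with a read, and the part of that in its Scx share was not tested. At 100 CPM or more the highest share was that of name series 3, with 19 of 38 cells (50.0%), followed by name series 1 with 20 of 58 (34.5%). Without name series 1 the share at 10 CPM was 36.9%. Bop1, the gene around Scx, was detected in 24.1% of cells, and its correlation with Scx across cells had a median of -0.04 over the name series.

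Col9a1 was the most frequent of the matrix genes, in 58.2% of cells (52.3 to 63.9), with a mean of 276.8 CPM and a highest level of 4789 CPM. Its share was 55.2%, 16.7%, 63.2%, 81.6%, 67.6%, 61.8% and 72.7% in name series 1 to 7. The interval of name series 2 (7.48 to 30.2) lay below those of the other 6. Without name series 2 the share was 66.3%.

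Col2a1 was detected in 97 cells (33%, 27.6 to 38.7), with a mean of 93.8 CPM and a highest level of 2643 CPM in name series 3. Its share was 13.8%, 10.4%, 28.9%, 44.7%, 73.5%, 38.2% and 40.9% in name series 1 to 7. Name series 5 held the highest mean, 269.5 CPM, and its median of 87 CPM was the only series median above 0. Col2a1 and Col9a1 were thus both found in few cells of name series 2, and Col2a1 also in few of name series 1.

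Acan was detected in 23 cells (7.82%, 5.02 to 11.5), with a highest level of 927 CPM. Of these, 16 were in name series 1, 4 in name series 2 and 3 in name series 3. In name series 4 to 7 no cell of 150 had a single Acan read, which allows a share of up to 2% by the limit of 3 cells. Of 11484 genes detected in at least 10 cells, 0.496% had no cell at 10 CPM in name series 4 to 7. That share pools genes of any frequency, and Acan passed the limit of 10 cells through name series 1 to 3 alone. It is therefore no measure of how unusual the Acan pattern is among genes as rare. Median reads per cell were 1588066, 1630832 and 635879 in name series 1 to 3 and 866932, 820096, 1623335 and 1242528 in name series 4 to 7. The median number of genes with a read was 7718, 4452 and 3301 in the first 3 and 3123 to 4677 in the other 4. The part of depth or of genes detected in the absence of Acan reads was not tested. At 100 CPM or more Acan was found in 6, 2 and 3 cells of name series 1, 2 and 3. Without name series 1 the share at 10 CPM was 2.97%.

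Matn4 was detected in 31 cells (10.54%, 7.28 to 14.6), with a highest level of 434 CPM in name series 5. Its cells numbered 10, 11, 4, 0, 3, 3 and 0 in name series 1 to 7. Together, name series 1 to 3 held 25 of the 31 Matn4 cells and all 23 Acan cells. Col2a1 lay the other way, in 16.7% of the cells of name series 1 to 3 and 48.7% of those of name series 4 to 7, as did Col9a1 with 44.4% and 71.3%. This split of the name series was chosen after the values were seen and is given as a description.

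**Figure D2:**
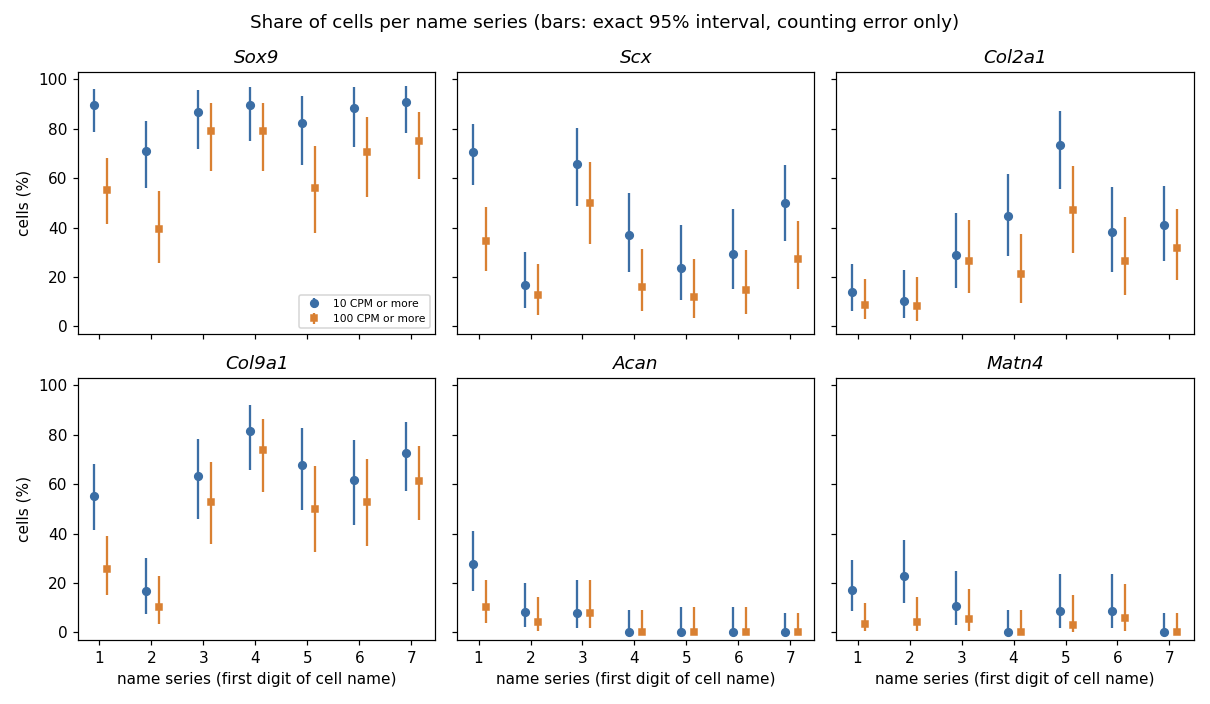
Share of cells (vertical axis, %) with each gene at 10 CPM or more (circles) and at 100 CPM or more (squares), by name series (horizontal axis), with exact 95% intervals that cover counting error only. Col2a1 ranges from 10.4% in name series 2 to 73.5% in name series 5 at 10 CPM, while Sox9 stays at or above 70.8%.

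Since longer transcripts yield more fragments, levels were compared between genes only per kilobase of exon. On the scale of mean CPM per kilobase, Sox9 stood at 82.8, Col9a1 at 54.6, Scx at 41.8, Col2a1 at 10.1, Matn4 at 1.90 and Acan at 1.68. The Acan level rested on name series 1, since its mean was 12.5 CPM with that name series and 3.14 CPM without it. Scx has the shortest exon length, 2007 bases, and Col2a1 the longest, 9243 bases, so that Scx lay below Col2a1 in CPM and above it per kilobase. The order changed between name series. Scx was level with Sox9 in name series 1, at 48.6 against 46.3 CPM per kilobase, and Col9a1 was above Sox9 in name series 6, at 107.4 against 88.4.

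Most cells with a target gene also had Sox9, as the width of Sox9 detection alone would give. Sox9 was detected in 93% of the Scx cells, 91.8% of the Col9a1 cells, 88 of the 97 Col2a1 cells, 27 of the 31 Matn4 cells and 19 of the 23 Acan cells. The share of cells with both genes was set beside the product of their single shares, worked out inside each name series and added up. Sox9 and Scx were found together in 40.5% of cells (34.8 to 46.3) against a product of 38.1%, Sox9 and Col2a1 in 29.9% (24.8 to 35.5) against 28.5%, and Sox9 and Col9a1 in 53.4% (47.5 to 59.2) against 50.8%. For Matn4 the values were 9.18% and 8.62%, and for Acan 6.46% and 6.73%. All 5 products lay inside the intervals. For Scx, Col2a1, Acan and Matn4, no excess of shared cells could have put the product outside, because Sox9 was so widespread. Had every Scx cell carried Sox9, the interval would be 37.8 to 49.4, which still holds 38.1%. The observed share was above the product for 4 of the 5 genes, and over 11483 genes this held for 61.7%, so the count is close to the background.

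Seen from the other side, Scx was detected in 47.4% of the cells with Sox9 (41.1 to 53.8) and in 20.9% of the 43 cells without it (10.04 to 36). Col9a1 was detected in 62.5% (56.2 to 68.6) and 32.6% (19.1 to 48.5), and Col2a1 in 35.1% (29.2 to 41.3) and 20.9% (10.04 to 36). Acan, with 7.57% and 9.30%, and Matn4, with 10.8% and 9.30%, had similar shares in both. These shares run over all name series, and 14 of the 43 cells below 10 CPM of Sox9 were in name series 2, where Scx, Col2a1 and Col9a1 were also rare. At least 1 of the 5 genes was detected in 83.3% of the cells with Sox9 and in 28 of the 43 without (65.1%). Set within the name series, Sox9 and any of the 5 occurred together in 71.1% of cells (65.5 to 76.2), against a product of 69.8%. Of the cells with Sox9, 42 had none of the 5, 69 had 1, 85 had 2, 49 had 3 and 6 had 4. No cell had all 5.

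**Figure D3:**
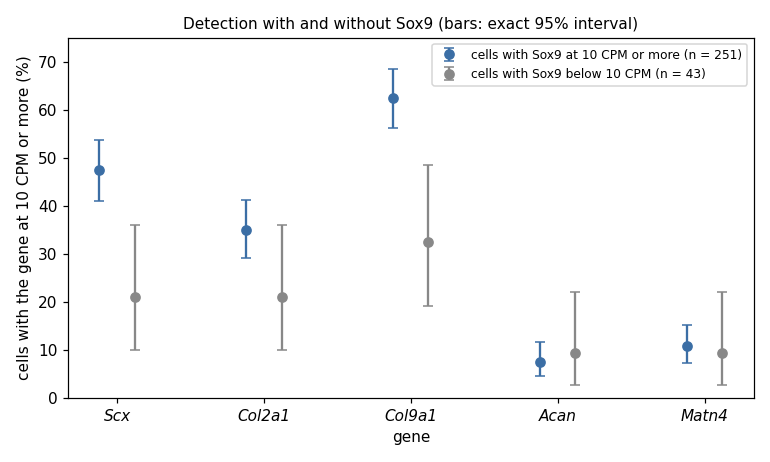
Share of cells (vertical axis, %) in which each of 5 genes (horizontal axis) reached 10 CPM, among the cells with Sox9 at 10 CPM or more (blue) and 43 cells with less (grey), with exact 95% intervals that cover counting error only. Scx and Col9a1 are at 47.4% and 62.5% in the blue cells against 20.9% and 32.6% in the grey, while the intervals overlap for Col2a1, Acan and Matn4; the cells are pooled over name series.

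Whether the level of Sox9 went with the level of its targets was described by Spearman's correlation of CPM, computed separately in each name series over its 34 to 58 cells. The cells differ in depth, what else the cells of a name series share is not in the labels, and cells are not replicates, so the correlations carry no p-value. Sox9 and Scx had correlations of 0.28, 0.30, 0.36, 0.02, 0.43, 0.11 and -0.02 in name series 1 to 7, with a median of 0.28. That median ranked at place 2 of the 8852 genes detected in at least 10% of cells. It was carried by name series 1, 2, 3 and 5, with values near 0 in name series 4 and 7. In name series 2 and 5 the values rest on few positive cells, with Scx detected in 8 of 48 and 8 of 34.

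Col2a1 had lower but steadier correlations with Sox9, at 0.15, 0.12, 0.38, 0.15, 0.21, 0.39 and 0.13, with a median of 0.15. It was above 0 in all 7 name series, which held for 0.542% of the 8852 genes. In name series 1 and 2 the values rest on few positive cells, with Col2a1 detected in 8 of 58 and 5 of 48. Col9a1 did not follow the level of Sox9 in a common direction. Its correlation was 0.44 in name series 1, 0.28 in name series 6 and 0.25 in name series 4, but -0.11, -0.08 and -0.17 in name series 3, 5 and 7, with a median of 0.06. Matn4 had a median of 0.03 over the 6 name series with a read, between -0.13 and 0.33. Acan had a correlation in name series 1 to 3 only, at -0.09, 0.07 and 0.15, and was too rare to be counted among the 8852 genes.

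The median was above 0 for all 4 genes counted, against 45.7% of all genes tested, and at or above 0.1 for 2 of the 4, Scx and Col2a1, against 8.57%. The count of 4 rested on single name series, and it was 2 without name series 1 or without name series 6. Matn4 and Acan are sparse, and their values near 0 are no finding, while Col9a1 is widely detected and its correlations differ in sign between name series. Depth moved with Sox9 in some name series, with a correlation between Sox9 and total reads of 0.48 in name series 5 and -0.43 in name series 7. With total reads and genes detected held fixed, the median correlation with Sox9 was 0.26 for Scx and 0.16 for Col2a1.

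The correlation with Scx was lower once cells with little or no Sox9 were left out. Among the cells with Sox9 at 10 CPM or more, in which Sox9 still spanned at least 55.3-fold in each name series, the median correlation with Scx was 0.10, between -0.15 and 0.48. For Col2a1 it was 0.17 and above 0 in 6 of 7 name series. For Col9a1 it was -0.13 and above 0 in 3 of 7. The median for Col2a1 was thus not lower among cells that all had Sox9, but name series 1, 2 and 7 gave only 0.07, -0.02 and 0.07. In these cells 6.52% of all genes tested had a median at or above 0.1.

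**Figure D4:**
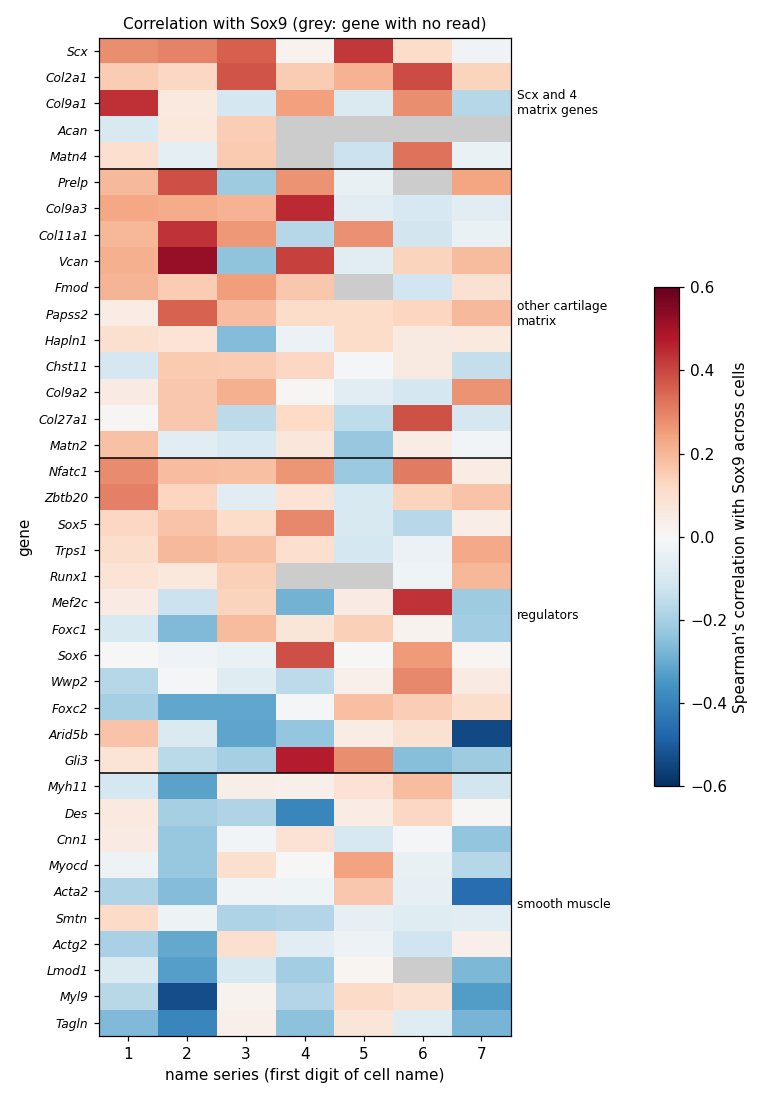
Spearman's correlation of CPM with Sox9 by name series (horizontal axis), for Scx and 4 matrix genes, other cartilage matrix genes, regulators and smooth muscle genes (vertical axis), in red above 0 and blue below 0. Col2a1 and Papss2 are above 0 in all 7 name series, Tagln has a median of -0.25, and grey marks a gene with no read in the name series.

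Among the other genes of cartilage matrix, 29 were listed, 21 were rows of the table and 11 were detected in at least 10% of cells. The median correlation with Sox9 was above 0 for 10 of the 11 and at or above 0.1 for 6, with a median over the list of 0.13 against -0.01 over all genes tested. Prelp, a leucine-rich repeat protein of connective tissue matrix, had 0.22, and Col9a3, a partner chain of Col9a1 in type IX collagen, had 0.21. Both differed in sign between name series: Prelp was above 0 in 4 of 6, with -0.21 in name series 3, and Col9a3 in 4 of 7, with values below 0 in name series 5, 6 and 7. Leaving out 1 name series brought Col9a3 to as low as 0.072, and with all cells taken as 1 set Prelp had -0.044. Col11a1, a chain of the type XI collagen of cartilage fibrils, had 0.20 and was above 0 in 4 of 7, and Vcan, the large proteoglycan versican of the cardiac cushions, had 0.19 and was above 0 in 5 of 7. Fmod, the collagen-binding fibromodulin, had 0.16, and 0.025 with all cells taken as 1 set. Papss2, an enzyme that makes the sulfate donor for proteoglycans, had 0.13 and was above 0 in all 7 name series. The lowest 2 were Matn2 at -0.02 and Col27a1 at 0.01. Among cells with Sox9 at 10 CPM or more, 8 of the 11 were above 0 and 3 at or above 0.1, against 37.3% of all genes above 0. The third chain of type IX collagen, Col9a2, had 0.05, so that the 3 chains ranged from 0.05 to 0.21.

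Detection of these matrix genes with Sox9 was above the product of shares for 13 of 16, against the background of 61.7%. Each product lay inside its interval, which decides little where Sox9 is this widespread. Vcan was detected in 95.6% of cells, Papss2 in 57.5% and Col9a3 in 49.3%. They fell into unlike patterns over the name series. Of the 88 cells with Fmod, 81 were in name series 1 to 3, as were 70 of the 77 with Prelp, 60 of the 73 with Matn2 and 17 of the 18 with Cytl1. For Hapln1, which links aggrecan and versican to hyaluronan, 43 cells were in name series 1 to 3 and 75 in name series 4 to 7, and its mean was 74.6 and 274.1 CPM. In this pooling Acan lay on the side of Fmod and Prelp, and Col2a1 and Col9a1 on that of Hapln1. Single name series did not all follow it. Hapln1 was detected in 44.8% of cells in name series 1 and 29.5% in name series 7, and Col2a1 in 13.8% and 40.9%. The share of all genes with such a split was not worked out, and name series 1 had the most genes with a read.

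**Figure D5:**
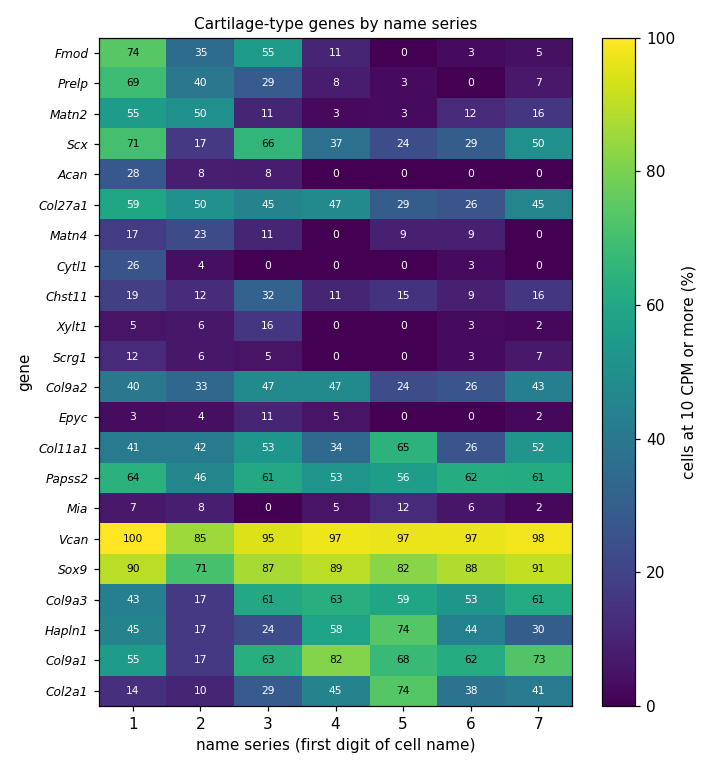
Share of cells (%, colour and printed value) with each cartilage-type gene at 10 CPM or more (vertical axis), by name series (horizontal axis), for genes detected in at least 10 cells, ordered by the difference between name series 1 to 3 and 4 to 7. Fmod, at 74.1% in name series 1 and 0% in name series 5, stands at one end and Col2a1, at 13.8% and 73.5%, at the other.

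Of the regulators that work with Sox9 in the skeleton, Sox5 was detected in 49% of cells and Sox6 in 36.4%. The median correlation with Sox9 was 0.11 for Sox5 and 0.00 for Sox6. Of the 12 listed regulators counted, 8 were above 0, against 45.7% of all genes, and 4 at or above 0.1, against 8.57%, the highest being Nfatc1, a factor of the endocardium and valves, at 0.18. Gli3, a factor of Hedgehog signalling, was the lowest at -0.16. Its sign differed between name series, above 0 in 3 of 7, with 0.47 in name series 4. Among 12 listed signalling genes, 9 were above 0 and 2 at or above 0.1, against the same shares of 45.7% and 8.57%. Fgfr2, a fibroblast growth factor receptor, had 0.25, and Tgfbr2, a receptor of transforming growth factor beta, had 0.09 and was above 0 in all 7 name series. Among cells with Sox9 at 10 CPM or more, Sox5 had -0.045 and Tgfbr2 had -0.017. Runx2 and Sp7, which direct bone formation, were each detected in 6 cells (2.04%).

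Of 14 tendon-type genes, 5 had a median correlation with Sox9 above 0, against 45.7% of all genes, and 2 at or above 0.1, against 8.57%, with a median over the list of -0.01. The count above 0 was 8 without name series 4, 8 without name series 7, 9 on cells thinned to equal depth and 8 with depth held fixed, so the list gives no direction. Of 3 bone-type genes, 1 was above 0, and Sparc, a collagen-binding matrix glycoprotein, had -0.16 and was below 0 in all 7 name series. All cells but 1 had Sparc at 10 CPM or more. Markers of smooth muscle, another fate of neural crest cells in the outflow tract, were listed as well. Of 10, 2 were above 0, against 45.7% of all genes, and none at or above 0.1, against 8.57%, with a median over the list of -0.06 against -0.01. Tagln, an actin-binding protein of smooth muscle, had -0.25, and Myl9, a myosin light chain, had -0.17. Both differed in sign between name series, with Tagln above 0 in 2 of 7 and Myl9 in 3 of 7. Detection of these smooth muscle genes with Sox9 was above the product for 1 of 10, against 61.7% of all genes. Each product lay inside its interval, which decides little where Sox9 is this widespread.

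Scx also went with matrix genes, and whether more closely than Sox9 was not tested. Its correlation with Col2a1 was 0.26, 0.35, 0.30, 0.26, 0.24, 0.07 and 0.29 in name series 1 to 7, above 0 in all 7, with a median of 0.26, and it was 0.11 with all cells taken as 1 set. Above 0 in every name series held for 2.15% of 8852 genes with Scx. In name series 1 and 2, Scx was set against only 8 and 5 cells with Col2a1. Its correlation with Col9a1 was near 0.28 in name series 1, 2, 3 and 5, at 0.28, 0.29, 0.25 and 0.30, and near 0 in name series 4, 6 and 7. The values of name series 2 and 5 rest on few positive cells. Scx and Col9a1 were each detected in 8 of 48 cells of name series 2, with 3 shared, and Scx in 8 of 34 of name series 5. The 4 genes counted, Sox9 included, all had a median at or above 0.1 with Scx, against 15.8% of all genes, as did 7 of the 11 other cartilage matrix genes. The value with Sox9 is the one given above and is no separate result. Of the 23 Acan cells, 16 had Scx, 10 had Col9a1 and 3 had Col2a1.

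Col2a1 and Col9a1 were found together in 73 cells (24.8%, 20 to 30.2) against a product of 21.8%, and their correlation had a median of 0.16 and was above 0 in 6 of 7 name series. With Col2a1, all 4 genes counted had a median at or above 0.1, against 12.7% of all genes, and Sox9 and Scx were above 0 in every name series, against 1.38%. The values with Sox9 and Scx are those given above, seen from Col2a1, and are no separate result. Acan and Col2a1 shared 3 cells, 1.02% against a product of 1.19%, and their correlation was -0.09, -0.04 and -0.01 in name series 1 to 3. The exact interval of the observed 1.02%, 0.211 to 2.95, holds that product. Acan and Matn4 shared 2 cells.

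The genes most like Sox9 were taken as the 10 with the highest median correlation among the 8852 genes whose correlation had the same sign in every name series that gave one. They were Trip12, a ubiquitin ligase (0.26), Gpx3, a secreted glutathione peroxidase (0.23), Nat9 (0.22), the growth factor Igf1 (0.20), the homeobox factor Meox1 (0.19), the adhesion molecule Clmp, the Wnt receptor Fzd2 and Dcaf6 (0.18 each), and Rcn3 and the matrix protein Abi3bp (0.17 each). For Abi3bp, 4 name series gave a correlation, and it was -0.073 when all cells were taken as 1 set. The 5 lowest were the small heat shock protein Hspb2 (-0.29), the chromatin protein Dek (-0.27), the flap endonuclease Fen1 and the cell cycle factor E2f1 (-0.24 each), and 2810006K23Rik (-0.23). For Hspb2, 5 name series gave a correlation. Col2a1 was above 0 in every name series but not among the 10. Scx (0.28) and Fgfr2 (0.25) had medians above most of the 10, and were left out because their sign differed between name series.

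For Scx, the highest were Abi3bp (0.37) and Meox1 (0.33), which were also among the 10 of Sox9, followed by the microfibril protein Mfap2 and Dlg2 (0.29 each), Rasl11b (0.28), Runx1, Ctsa and the glypican Gpc3 (0.27 each), and Col2a1 and the elastic fibre protein Fbln5 (0.26 each). The lowest were the DNA methyltransferase Dnmt1 (-0.29), the helicase Ddx21 (-0.25), and Racgap1, Birc5 and Smc1a, which act in cell division. For Col2a1, the highest were Fmod (0.33) and Scx (0.26), followed by Stx4a, Sft2d2, Mfap2, Crabp1, Edil3, Papss2, Shisa2 and Grb10, and the lowest was the histone chaperone Nap1l1 (-0.27). Fmod and Col2a1 had -0.080 when all cells were taken as 1 set. Fmod was detected mostly in name series 1 to 3 and Col2a1 mostly in 4 to 7.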

How the data were processed

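RNA of single EYFP-positive cells was measured by full-length RNA sequencing. Per the submitters' processing notes, the authors used HISAT2 2.1.0, featureCounts and Seurat with mm10; how each was set is not given in the sources used here. The authors deposited raw read counts per gene (15124 genes). A second deposited table, treated as a score because it holds normalized values rounded to whole numbers, served as an alternative only.

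CPM were computed from the deposited counts, with each cell's own total as the divisor. The second table has its own scale. The cell names tied columns to samples, and 0 cells were identical to another. Detection meant 10 CPM. Intervals are exact Clopper-Pearson, 95%, over cells, for counting error only. They do not cover differences between animals, chips or stages, which the labels do not give for a cell. Without molecular identifiers, several reads can stem from 1 molecule. Correlations are Spearman's within a name series, summarised by the median. No test was run, because no animal is named and all cells form 1 group. Scripts were tested on simulated data.

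The members and gene lists were chosen with earlier results of these data known. Open to naming were the 6 genes, and from each list the 4 highest and 2 lowest correlations with Sox9 and the 3 widest detected. For Sox9, Scx and Col2a1, the 10 highest and 5 lowest genes of constant sign were open to it as well. Not all of these are printed, and the choice among them followed no rule. No tendon-type gene is named, of the smooth muscle list only the 2 lowest are, and of the 5 lowest for Col2a1 only Nap1l1 is. Some other genes (Sox6, Runx2, Sp7, Hapln1, Cytl1, Col9a2) are named beyond that rule as background to the 6, chosen after their values were seen. Alternatives were other detection levels, the second table, cells thinned to 286313 reads (264 cells kept), depth held fixed, no strata, other filters, and leaving out each name series. Python 3.11.15, pandas 2.3.3, scipy 1.17.1 and numpy 2.4.6 were used.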

Additional observations from a re-analysis of the deposited data

How the results depend on the processing

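Over the alternatives, 32 of the values that summarise a comparison moved. A share was called moved when it left its interval, and a count when it changed by more than 1.5 times. A correlation or mean level was called moved when it changed by more than its standard deviation over the name series. The shares moved with the level called detected. At 1 read or more, Sox9 was in 91.8% of cells, Scx in 52.4%, Col9a1 in 70.7% and Acan in 16.3%, and at 5 reads or more Col9a1 was in 65%. At 100 CPM or more the shares were 63.6% for Sox9, 24.5% for Scx, 22.4% for Col2a1, 44.2% for Col9a1, 3.74% for Acan and 3.06% for Matn4. At a value of 1 or more in the second deposited table they were 92.9%, 53.7%, 39.1%, 74.1%, 16.7% and 15% in the same order. Leaving out each name series in turn gave 36.9% to 48.8% for Scx, 54.7% to 66.3% for Col9a1, 2.97% to 9.20% for Acan, 2 to 4 of 4 genes with a median Sox9 correlation above 0, and 5 to 8 of 14 tendon-type genes. The tendon-type count was 9 on thinned cells and 8 with depth held fixed. With cells at 10 CPM or more of Sox9 only, 2 of the 4 genes were above 0 and the Sox9 and Scx median was 0.10. The bone-type count was 3 with no filter beyond 3 cells and 0 with at least 30% of cells, and 1 of 3 lay above the product at 1 read and in the second table. With all cells as 1 set, Sox9 had -0.073 with Abi3bp, -0.044 with Prelp, 0.025 with Fmod and -0.0041 with Tgfbr2, and Col2a1 had -0.080 with Fmod and 0.11 with Scx. Of the 10 genes most like Sox9, 1 to 8 were kept under the alternatives. The cause of these changes was not tested. Acan and Matn4, with 23 and 31 cells, are limited by the number of cells. No paired analysis was possible because all cells form 1 group.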

Other observations

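Among the other lists, 2 genes of the epicardial list were detected widely enough to be counted. Both had a median correlation with Sox9 at or above 0.1, against 8.57% of all genes. Tcf21, a basic helix-loop-helix factor of mesenchymal and epicardial cells, had 0.15 and was detected in 44.6% of cells, and Tbx18, a T-box factor, had 0.11 and was detected in 51.7%. Tcf21 was above 0 in 4 of 7 name series and Tbx18 in 6 of 7. Leaving out 1 name series brought Tcf21 to as low as 0.034. Both genes are also expressed in mesenchyme, and no cell type is named from them. The 2 glial genes counted were below 0, and 1 of 3 endothelial and 1 of 2 cardiomyocyte genes were above 0, against 45.7% of all genes. Over the name series, the median summed level of the 8 cardiomyocyte genes in the table was 0 to 50.7 CPM, that of the 10 glial genes 0 to 28.2 CPM and that of the 10 smooth muscle genes 308 to 2896 CPM.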
